A study of Mus musculus with 6 samples.

Results

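The genes described here are 43 mouse genes of the interferon response and of antigen presentation on MHC class I, chosen by name. No measured value served as a cut, but earlier results of these data were known when the genes were chosen. They were read in the forebrain transcriptome of mice on a normal chow diet (NCD) or a high-fat diet (HFD). All 43 were among the 23282 entries of the count tables, all 43 had a count in at least 1 library, and 38 of the 13771 genes that passed the filter on low counts were members. The comparison asks whether a short exposure to fat changed the transcript levels of these genes in the brain.

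The series holds 6 RNA-Seq libraries, 3 of NCD mice and 3 of HFD mice. All mice were male C57BL/6J animals of 8 to 10 weeks, labelled wild type, and no treatment other than the diet is named. The HFD gave 60 kcal% as fat and was fed for 10 days, while the control mice stayed on chow. RNA came from 1 forebrain hemisphere without olfactory bulb and cerebellum, so that neurons, glia, vessels, meninges and blood left in the vessels were measured as a mixture. The labels give a replicate number per diet but do not say that each library is a separate mouse, and the p-values below measure only the spread between these libraries.

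Interferons are secreted signalling proteins, and those of type I are made in response to viral nucleic acid. Type I interferons bind the receptor of Ifnar1 and Ifnar2, interferon gamma binds that of Ifngr1 and Ifngr2, and both routes signal through Janus kinases to STAT proteins. Complexes of STAT proteins with IRF9 bind the interferon-stimulated response element (ISRE) in front of their target genes, and the IRF proteins bind similar letters. The targets include antiviral effectors, GTPases that act on the membranes of intracellular pathogens, and the parts of the class I route, in which peptides are carried into the endoplasmic reticulum and shown on the cell surface. In the healthy brain these genes are kept at a low level, and microglia, vessel cells and astrocytes are among the cells known to respond.

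The letters GAAANNGAAA, the core of the ISRE, were searched on both strands in the RefSeq promoter windows (250 bases before to 50 bases after the annotated start, GRCm38.p6). They stood in 16 of the 34 members with a promoter entry (47.1%), against 1079 of 27025 genes (3.99%) and 1131 of 32851 promoters (3.44%). The letters TTCNNNGAA of the gamma-activated site (GAS), to which STAT dimers bind, stood in 8 of the 34 members (23.5%), against 9.55% of genes and 8.3% of promoters. Usp18, Ifi27, Mx1, Mx2, Rtp4, Parp14, Iigp1, Tap2 and Nlrc5 had no promoter entry. A match is a description of the letters and not a measured binding site. The 4 windows below are shown since Isg15, Ifit1 and Ifit3 hold several matches and turned out to differ widely between the NCD libraries, and B2m is a member with a match and a steady level. Each is 100 bases, 5′ to 3′ on the strand of the gene, lies wholly before the annotated start, and has the matched letters of either strand in capitals.

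Isg15, chr4:156200836-156200935, minus strand, 3 overlapping matches, the first 78 bases before the start: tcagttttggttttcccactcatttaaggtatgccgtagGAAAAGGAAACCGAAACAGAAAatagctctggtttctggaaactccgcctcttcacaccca

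Ifit1, chr19:34640749-34640848, plus strand, 2 matches, the first 104 bases before the start: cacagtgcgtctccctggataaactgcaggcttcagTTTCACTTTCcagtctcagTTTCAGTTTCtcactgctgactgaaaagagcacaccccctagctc

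Ifit3, chr19:34583345-34583444, plus strand, 2 matches, the first 156 bases before the start: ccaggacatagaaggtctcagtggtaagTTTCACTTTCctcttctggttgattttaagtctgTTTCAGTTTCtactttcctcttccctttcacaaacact

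B2m, chr2:122147503-122147602, plus strand, 1 match, 139 bases before the start: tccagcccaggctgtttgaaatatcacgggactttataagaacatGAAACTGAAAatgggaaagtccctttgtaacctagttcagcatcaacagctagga

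The libraries held between 6842785 and 9689372 counts, and a count of 3, taken as the floor, stood for 0.316 to 0.432 CPM (counts scaled to library size, with library sizes adjusted by TMM). Forebrain neuron markers were present in every library, with 8 of 8 tested and a summed level of 6880 to 7410 CPM on NCD and 6500 to 7180 CPM on HFD. Microglia markers (14 of 14 tested, none with an unadjusted edgeR p under 0.05) summed to 480 to 498 CPM on NCD and 494 to 529 CPM on HFD, and endothelial markers (10 of 10 tested) to 186 to 194 CPM and 170 to 222 CPM. Lymphocyte markers were near the floor, with 0 of the 10 listed tested, sums of 0.288 to 1.58 CPM, and the B cell marker Ms4a1 at 0 in all libraries. The libraries also differed in transcripts known from other tissues. Pituitary hormone genes summed to 1280 CPM in HFD replicate 3 against 4.75 to 13.6 CPM in the other 5 libraries, liver plasma protein genes (5 of 7 tested, all 5 with a p under 0.05, lower on HFD) to 51.8 CPM in NCD replicate 2 against 5.77 to 28.1 CPM in the others, and red cell genes (5 of 5 tested, 4 higher with a p under 0.05) to 421 to 519 CPM on NCD and 544 to 824 CPM on HFD. The part of these differences in the results on the members was not tested, and values without a library are given for the members described in full where they move most.

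No member was called between the diets. By the quasi-likelihood test of edgeR, adjusted after Benjamini and Hochberg over every gene tested, 0 of 38 members had an adjusted p under 0.05 (0 of 13771 genes, 0%), with adjusted p-values of the members from 0.979 to 0.999. An unadjusted p under 0.05 was found for 0 of 38 members, against 507 of 13771 genes (3.68%, with 1.71% higher and 1.98% lower on HFD), and DESeq2 and limma after quantile normalization gave 0 by both measures as well. The 3 HFD libraries did not lie all on one side of the 3 NCD libraries for any of the 38, while the groups did not overlap for 8.81% of all genes tested (4.31% with HFD above, 4.49% with HFD below). The log2 fold change was above 0 for 23 members and below 0 for 15, with a median of 0.03, a range of -0.50 to 0.67, and a median standard error (SE) of 0.32. Over all genes tested the median log2 fold change was -0.00245 and the median SE 0.16, so that the members, most of them of low count, were measured less precisely than the typical gene. In whole tissue, fewer cells of a type and less RNA per cell cannot be told apart.

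**Figure D1:**
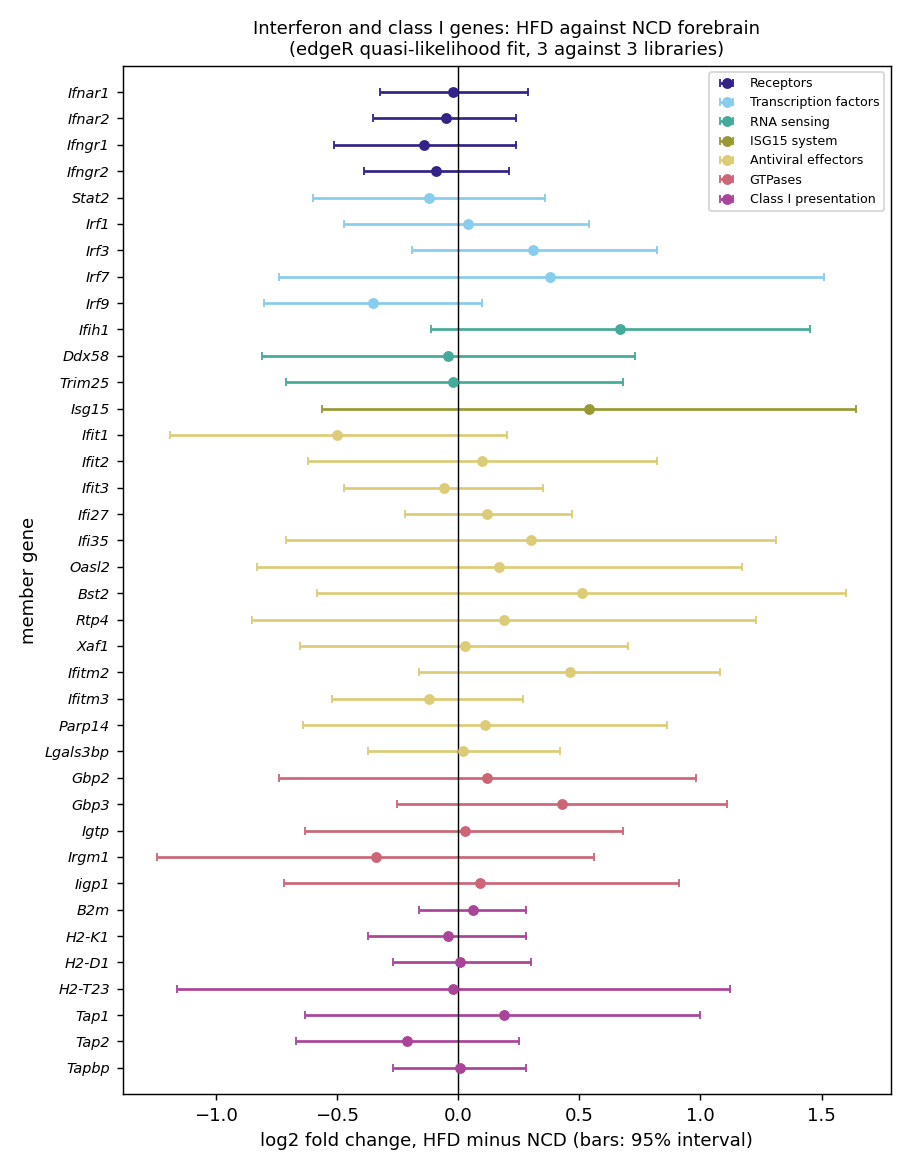
Log2 fold change (HFD minus NCD) of the 38 members tested, from edgeR's quasi-likelihood fit on 3 against 3 libraries. Points are estimates coloured by role and bars are 95% intervals. All 38 intervals include 0, and those of the receptors and of B2m, H2-K1, H2-D1 and Tapbp are among the narrowest.

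The interferon receptors were the most evenly expressed role. All 4 receptor genes passed the filter, with log2 fold changes from -0.14 to -0.02. Ifngr2, the signalling chain of the interferon gamma receptor and the receptor gene with the most counts, had 207, 227 and 288 counts on NCD and 156, 238 and 197 counts on HFD. On the CPM scale this was 26.8 ± 3.12 (SD, n = 3) on NCD and 25.2 ± 2.42 (SD, n = 3) on HFD, and the groups overlapped. Ifngr1, the chain that binds the ligand, had a log2 fold change of -0.14 with a 95% interval of -0.51 to 0.24. Ifnar1 and Ifnar2, the chains of the type I receptor, had -0.02 (-0.32 to 0.29) and -0.05 (-0.35 to 0.24). With an SE of 0.14 each, Ifnar1, Ifnar2 and Ifngr2 were among the members measured most precisely. No ligand was seen. None of the 11 interferon genes searched had a count in any library, which leaves room for levels up to the floor.

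Of the transcription factors, 5 of 5 were tested and their log2 fold changes ran from -0.35 to 0.38 with a median of 0.04. Irf9, the DNA-binding part of the complex with STAT2, had the most counts of the role and the second lowest log2 fold change of the 38 members tested. Its counts were 79, 95 and 124 on NCD and 54, 97 and 54 on HFD. HFD replicates 1 and 3 were below all NCD libraries and HFD replicate 2 lay among them. The level was 11.0 ± 1.79 CPM on NCD and 8.60 ± 1.74 CPM on HFD (SD, n = 3 each). The log2 fold change was -0.35 ± 0.21 (SE), with an unadjusted p of 0.12 in the edgeR test and an adjusted p of 0.979. Leaving out HFD replicate 2 gave -0.54 (unadjusted p 0.0423, adjusted p 0.963). An exon of Irf9 overlaps one of Rnf31 on the same strand in the annotation, so that reads there could be counted for either. Stat2, the partner of Irf9, had a log2 fold change of -0.12 ± 0.23 (SE). Irf3, the factor that first responds to viral RNA and DNA, had 0.31 ± 0.24 (SE), Irf1, a target of interferon gamma, had 0.04 ± 0.24 (SE), and Irf7, the amplifier of type I interferon production, had 0.38 ± 0.53 (SE) on 6 to 15 counts, which moved to 0.04 when HFD replicate 1 was removed and to 0.88 when NCD replicate 1 was removed.

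The RNA sensing genes held the member with the highest log2 fold change among the 38 tested. Ifih1 encodes MDA5, a cytoplasmic sensor of long double-stranded RNA, and had 18, 28 and 25 counts on NCD and 27, 24 and 45 counts on HFD. HFD replicate 3 was the highest library and HFD replicate 2 fell within the NCD range. The level was 2.63 ± 0.399 CPM on NCD and 4.23 ± 1.81 CPM on HFD (SD, n = 3 each). HFD differed from NCD by a log2 fold change of 0.67 ± 0.37 (SE), with a 95% interval of -0.11 to 1.45, an unadjusted p of 0.0888 in the edgeR test and an adjusted p of 0.979. It was 0.29 without HFD replicate 3, the library with the pituitary transcripts, and 0.93 without HFD replicate 2, with an unadjusted p of 0.0286 and an adjusted p of 0.963. Ddx58, which encodes the sensor RIG-I, had a log2 fold change of -0.04 ± 0.36 (SE). Trim25, the ubiquitin ligase that acts on RIG-I and the sensing gene with the most counts, had 39, 47 and 64 counts on NCD and 62, 38 and 26 counts on HFD. Its HFD libraries spanned more than the NCD libraries, from 3.57 to 8.93 CPM, and its log2 fold change was -0.02 ± 0.33 (SE), or -0.52 without HFD replicate 1.

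Isg15, the ubiquitin-like protein that is conjugated to other proteins during the response and whose promoter window holds the 3 overlapping ISRE matches above, had the second highest log2 fold change of the members tested and a wide spread within the NCD group. Its counts were 15, 49 and 6 on NCD and 35, 34 and 19 on HFD. NCD replicate 2 held the highest and NCD replicate 3 the lowest count, and the exact 95% Poisson intervals of the 2 counts, 36.3 to 64.8 and 2.2 to 13.1, did not overlap. In CPM the libraries were at 1.85, 5.29 and 0.632 on NCD and at 5.04, 3.72 and 2.61 on HFD, an 8.36-fold range within NCD and a 1.93-fold range within HFD. Between the diets the log2 fold change was 0.54 ± 0.52 (SE), with an unadjusted p of 0.315 in the edgeR test and an adjusted p of 0.979. Leaving out NCD replicate 2 gave 1.63 ± 0.52 (SE; unadjusted p 0.0064, adjusted p 0.97), and leaving out NCD replicate 3 gave 0.06. Single NCD libraries thus set the size of the Isg15 difference. Usp18, the protease that removes ISG15, was under the filter, with 12, 8 and 9 counts on NCD and 4, 17 and 1 counts on HFD.

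Antiviral effectors were the largest role, with 13 of 15 tested, 10 with a log2 fold change above 0 and 3 below, a median of 0.11 and a range of -0.50 to 0.51. Ifi27, a protein of mitochondrial membranes and the effector with the most counts, had 331, 298 and 344 counts on NCD and 220, 329 and 373 counts on HFD. The levels, 36.4 ± 4.36 CPM and 39.6 ± 10.3 CPM (SD, n = 3 each), overlapped, and the log2 fold change was 0.12 ± 0.16 (SE), or -0.10 without HFD replicate 3. Ifit1, which binds viral RNA that lacks the methylation of host caps, had the lowest log2 fold change of the 38 members tested. Its counts were 53, 123 and 42 on NCD and 41, 47 and 45 on HFD. NCD replicate 2 stood far above the other 5 libraries, which lay between 4.42 and 6.54 CPM, and the exact Poisson interval of its count was 102 to 147. Ifit1 stood at 8.08 ± 4.62 CPM on NCD and 5.74 ± 0.544 CPM on HFD (SD, n = 3 each), with a log2 fold change of -0.50 ± 0.33 (SE), an unadjusted p of 0.149 in the edgeR test and an adjusted p of 0.979. Leaving out NCD replicate 2 turned it to 0.07, and leaving out NCD replicate 3 gave -0.80 with an unadjusted p of 0.0173 and an adjusted p of 0.999.

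The other Ifit genes showed the same order of the NCD libraries. Ifit2, a relative of Ifit1 that also binds RNA, had 52, 74 and 27 counts on NCD and 44, 39 and 58 counts on HFD. Ifit3, which stabilises IFIT1 in its complex, had 164, 200 and 117 counts on NCD and 119, 149 and 135 counts on HFD. Their log2 fold changes were 0.10 ± 0.34 (SE) and -0.06 ± 0.19 (SE), and both were lowest without NCD replicate 3, at -0.24 and -0.27. The end of Ifit3 shares a stretch of 75 bases, the read length, with Ifit3b, and the sum of both genes kept the order within NCD, with 226, 288 and 164 counts against 161, 233 and 193 counts on HFD. Rtp4, a chaperone of receptors that also limits virus replication, had 24, 52 and 13 counts on NCD and 41, 14 and 30 counts on HFD. It varied as much within HFD as within NCD, by 3.86-fold and 4.10-fold, and its log2 fold change was 0.19 ± 0.49 (SE). It moved to -0.26 when HFD replicate 1 was removed and to 0.82 when NCD replicate 2 was removed. An exon of Rtp4 overlaps one of Gm45338 on the same strand. Ifit2, Ifit3, Rtp4 and Ifitm3 are given in full for their spread, which was seen in the data first.

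The membrane restriction factors ranged widely in count. Bst2, or tetherin, which holds budding virus at the cell surface, had the third highest log2 fold change of the members tested, on few counts, 4, 11 and 17 on NCD and 10, 21 and 9 on HFD. It was 0.51 ± 0.51 (SE), the groups overlapped, and it lay between 0.17 without NCD replicate 1 and 0.97 without NCD replicate 3. Ifitm2 and Ifitm3 block the fusion of virus with endosomes. Ifitm2 had a log2 fold change of 0.46 ± 0.29 (SE). Ifitm3 had 280, 322 and 293 counts on NCD and 299, 244 and 164 counts on HFD, with the 3 HFD libraries spread from 22.5 to 43.0 CPM around an even NCD group. Its log2 fold change was -0.12 ± 0.19 (SE), and leaving out HFD replicate 1 gave -0.44 (edgeR unadjusted p 0.0133, adjusted p 0.839). Both genes share stretches of 75 bases at their ends with other entries of the annotation, so that their counts may be divided. The remaining effectors tested were Oasl2, Ifi35, Xaf1, Parp14 and Lgals3bp, with log2 fold changes of 0.02 to 0.30.

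Mx1 and Mx2, GTPases that trap viral nucleoprotein and are known to be defective in many laboratory strains, were both under the filter. Mx1 had 0, 8 and 8 counts on NCD and 0, 0 and 2 counts on HFD. Mx2 had 6, 1 and 0 counts on NCD and 7, 11 and 13 counts on HFD, with all HFD libraries above all NCD libraries. In the fit without a filter the log2 fold change of Mx2 was 2.25 ± 0.86 (SE), with an unadjusted p of 0.00966 and an edgeR adjusted p of 0.843. In that fit 4.76% of 18936 genes had an unadjusted p under 0.05, the groups did not overlap for 8.14%, and 0.121% had an adjusted p under 0.05, and Mx2 was the 1 member of 43 with such an unadjusted p. NCD replicate 1 held 6 of the 7 NCD counts. Without it, and also without HFD replicate 1, Mx2 passed the filter only through HFD libraries, so that no fitted value is given for either. Mx1 had a value of -2.54 ± 1.35 (SE) there (unadjusted p 0.0603, edgeR adjusted p 0.941). The end of Mx1 shares 75 bases with transcripts of Mx2, and the sum of both was 6, 9 and 8 counts on NCD and 7, 11 and 15 counts on HFD. In CPM the sum was 0.741, 0.971 and 0.843 on NCD and 1.01, 1.20 and 2.06 on HFD, with all HFD libraries above all NCD libraries.

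The interferon-inducible GTPases were tested in 5 of 5 cases, with log2 fold changes from -0.34 to 0.43. Gbp3, a guanylate-binding protein and the GTPase gene with the most counts, had 20, 46 and 32 counts on NCD and 40, 38 and 35 counts on HFD. Its HFD libraries were even and lay within or just above the NCD range, and its log2 fold change was 0.43 ± 0.32 (SE), from 0.23 without NCD replicate 1 to 0.73 without NCD replicate 2. The end of Gbp3 shares 75 bases with Gbp7, so that reads there could be counted for either. Irgm1, which regulates the other immunity-related GTPases and is needed against intracellular bacteria, had the lowest log2 fold change of the members tested after Ifit1 and Irf9. Its counts were 16, 48 and 18 on NCD and 15, 23 and 18 on HFD. As with Ifit1, NCD replicate 2 alone was high, and the difference of -0.34 ± 0.42 (SE) became 0.30 without it. Gbp2, Igtp and Iigp1 had log2 fold changes of 0.12, 0.03 and 0.09.

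The class I genes with high counts differed little between the diets. Of 8 genes, 7 were tested, with log2 fold changes from -0.21 to 0.19 and a median of 0.01. B2m, the constant light chain of all class I molecules, had 1452, 1798 and 1817 counts on NCD and 1468, 1715 and 1385 counts on HFD. That was 188 ± 7.87 CPM and 196 ± 13 CPM (SD, n = 3 each). Its log2 fold change was 0.06 ± 0.10 (SE), and its 95% interval of -0.16 to 0.28 was the narrowest among the members. The heavy chain genes H2-K1 and H2-D1 had log2 fold changes of -0.04 ± 0.16 (SE) and 0.01 ± 0.13 (SE). The end of H2-K1 shares 75-base stretches with H2-D1 and further class I genes, while none was found for the end of H2-D1. The sum of H2-K1 and H2-D1 was 59.0, 70.4 and 70.2 CPM on NCD and 63.9, 66.1 and 69.3 CPM on HFD. H2-T23, the nonclassical molecule Qa-1, had 5 to 15 counts and a log2 fold change of -0.02 ± 0.54 (SE). Tap1 and Tap2, the peptide transporter, had 0.19 ± 0.39 (SE) and -0.21 ± 0.22 (SE), and Tapbp, or tapasin, which bridges the transporter and the heavy chain, had 0.01 ± 0.13 (SE). An exon of Tapbp overlaps one of Zbtb22 on the same strand, and their transcripts share 75 bases at the end of Tapbp. Nlrc5, the transactivator of class I genes, was under the filter, with 2, 2 and 0 counts on NCD and 0, 1 and 3 counts on HFD.

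Cxcl10, the chemokine that draws T cells into inflamed tissue, was also under the filter. It had 0, 11 and 1 counts on NCD and 2, 0 and 0 counts on HFD. A single library, NCD replicate 2, held 11 of these counts, and the other 5 were at or below the floor of 3 counts, so that no fold is given.

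The plot of CPM by library sets the members with a wide spread beside steady ones.

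**Figure D2:**
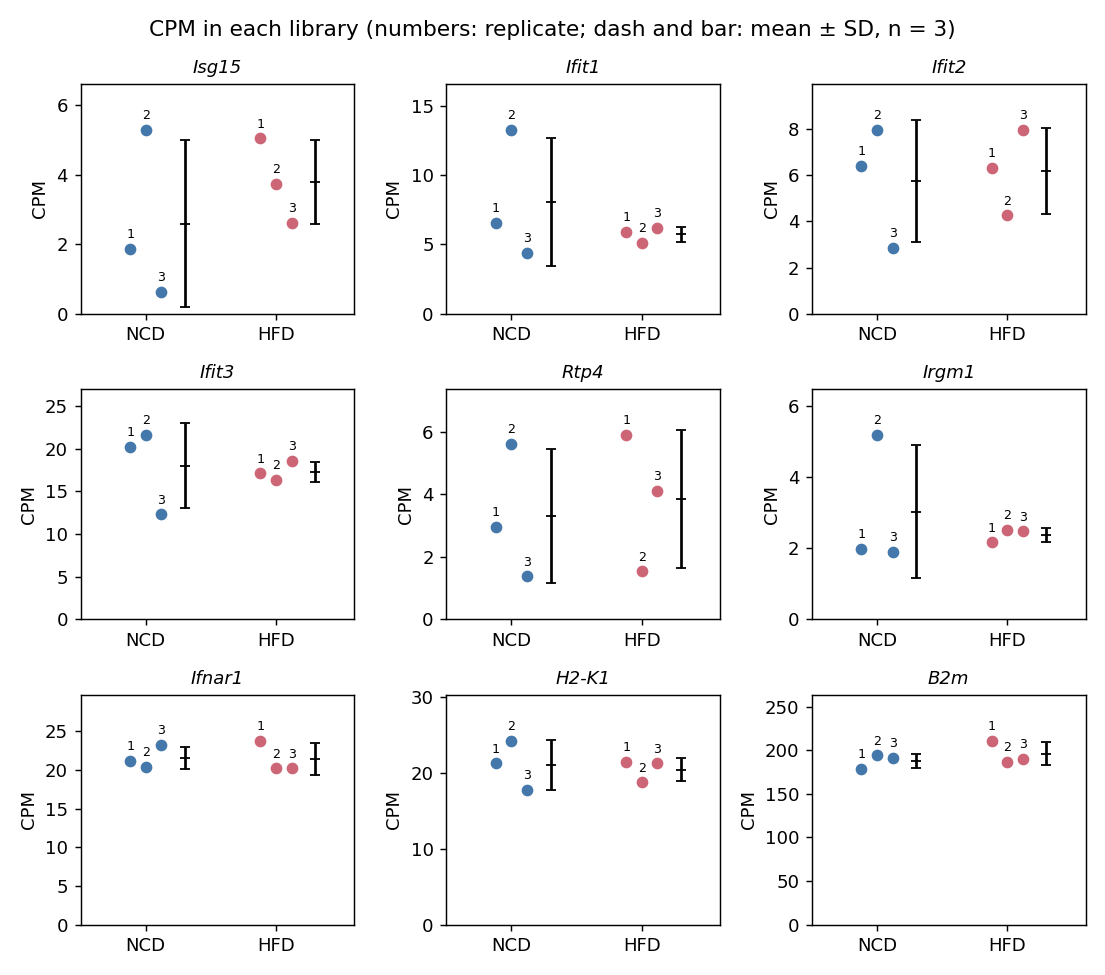
CPM of 9 members in each library (y axis, from 0) by diet (x axis). Numbered points are replicates, and the dash and bar are the mean ± SD of 3 libraries. For Isg15, Ifit1, Ifit2, Ifit3, Irgm1 and H2-K1, NCD replicate 2 is the highest and NCD replicate 3 the lowest library of all 6. Ifnar1, H2-K1 and B2m vary less, around similar means.

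The spread within a diet was expressed as an index, the squared deviations from the diet's own rate over those expected from Poisson counting, which is near 1 where counting error alone is at work. At an equal relative spread the index rises with the count, so that it also ranks genes by level. The median of the mean counts was 47.5 for the members and 182 over all genes tested. The index had a median of 3.28 over all genes tested and 2.56 over the 38 members. By role the median index was 1.45 for the receptors, 2.45 for the transcription factors and for the GTPases, 2.82 for the class I genes, 3.42 for the RNA sensing genes and 3.65 for the antiviral effectors, with no test between roles. Isg15 was at 11.8, at the 88.4 percentile of all genes tested. Within NCD the index was 24.4 for Ifit1, 20.8 for Isg15, 13 for Ifit3, 12.9 for Rtp4, 11.4 for Ifit2, 10.5 for Irgm1 and 10.3 for H2-D1, and below 10 for the other members tested. Within HFD it was 0.432, 2.78, 0.614, 10.7, 4.70, 0.117 and 1.49 for the same genes, so that of these Rtp4 alone was above 10 in both diets. Ifitm3, Ifi27 and Trim25 went the other way, with 27.9, 19.7 and 11.6 within HFD and 1.32, 4.53 and 1.79 within NCD.

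The same library was high or low for many members. NCD replicate 2 was the highest library for 10 of 38 members (26.3%), against 13.4% of all genes tested, and HFD replicate 1 for 10 of 38 (26.3%), against 14.6%. NCD replicate 3 was the lowest library for 13 of 38 members (34.2%), against 21.7% of all genes. NCD replicate 1 was the lowest for 10 of 38 (26.3%), against 13.1%. Among the class I members NCD replicate 1 was the lowest for 4 of 7 and NCD replicate 3 for 1 of 7. Among the antiviral effectors NCD replicate 3 was the lowest for 7 of 13. Over the effectors, Isg15 and the GTPases together, a grouping made after the values were seen, it was the lowest for 11 of 19 and NCD replicate 2 the highest for 7 of 19. The median deviation of these 19 genes from their own means was 0.02, 0.26 and -0.38 on the log2 scale for NCD and 0.10, -0.02 and 0.09 for HFD, while the median over all genes tested was between 0.00 and 0.01 in each library. Isg15, Ifit1, Ifit2, Ifit3, Irgm1, Iigp1, H2-K1 and Ddx58 were each highest in NCD replicate 2 and lowest in NCD replicate 3.

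**Figure D3:**
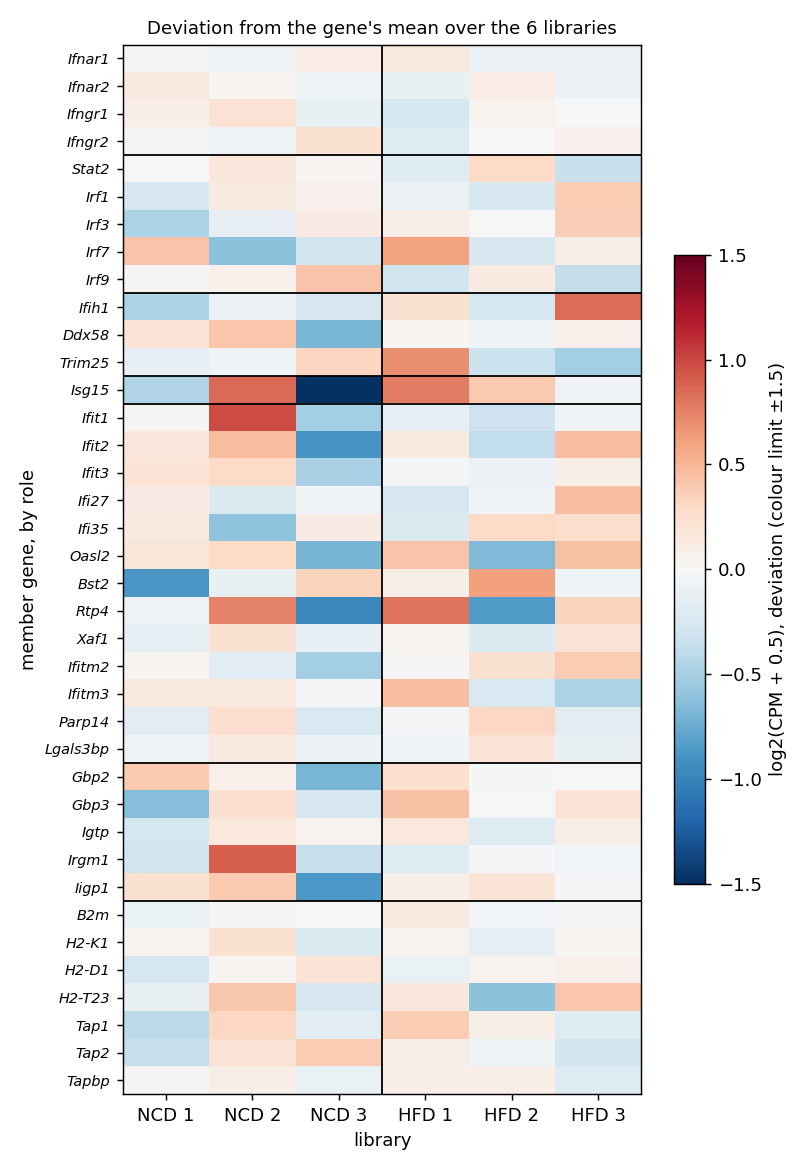
Deviation of each of the 38 members (rows, by role, with lines between roles) from its mean over the 6 libraries (columns), as log2(CPM + 0.5), with red above and blue below the mean and colours limited at 1.5 on either side. The red cells of NCD 2 and the blue cells of NCD 3 gather in the rows of Isg15, the Ifit genes, Rtp4, Irgm1 and Iigp1, and the receptor rows are pale.

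The members with the ISRE letters can be set beside those without. The 15 tested members with the letters had a median deviation of -0.10, 0.18 and -0.30 on NCD and of 0.14, -0.04 and 0.00 on HFD. The 18 with a promoter entry and no such letters had 0.00, 0.09 and -0.08 on NCD and 0.05, 0.00 and 0.05 on HFD. NCD replicate 3 was the lowest library for 7 of the 15 (46.7%) and for 3 of the 18 (16.7%), against 21.7% of all genes. The median of the mean counts was 32.2 with the letters and 74.5 without. Counting error is thus larger on the log2 scale for those with the letters, and its part was not tested. Between the diets, members with the letters had a median log2 fold change of 0.03 and those without of 0.02. The liver transcripts summed to 28.1, 51.8 and 10.4 CPM in the NCD libraries, the same order as Isg15, and to 7.77, 11.9 and 5.77 CPM in the HFD libraries, where the order of Isg15 was another. Microglia marker sums in the NCD libraries were 498, 488 and 480 CPM and endothelial sums 194, 186 and 191 CPM. Of the NCD libraries, the microglia sum was lowest in replicate 3, as Isg15 was, and highest in replicate 1. The endothelial sum was lowest in replicate 2. NCD replicate 3 was the lowest of all libraries for 5 of 14 microglia markers (35.7%), against 21.7% of all genes. For endothelial markers this was 2 of 10 (20%). For oligodendrocyte markers it was 4 of 7 (57.1%), with sums of 8810, 8870 and 7680 CPM on NCD and 9340, 8670 and 8630 CPM on HFD. For astrocyte markers it was 1 of 7 (14.3%) and for neuron markers 1 of 8 (12.5%). The part of cell types and of the liver transcripts in the spread was not tested.

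The rest of the pathway was read from lists of 142 further genes, of which 141 were in the files, 126 had a count and 88 were tested. An unadjusted p under 0.05 in the edgeR test was found for 6 of the 88, 4 higher and 2 lower on HFD, against 3.68% of all genes, and an adjusted p under 0.05 for 0. The groups did not overlap for 9 of the 88, against 8.81% of all genes, with HFD above in all 9, against 4.31%, and the median log2 fold change was 0.04. No gene among 11 other signalling genes, 6 other IRF genes, 15 genes of nucleic acid sensing and 7 class II genes had an unadjusted p under 0.05.

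Of 36 other interferon-stimulated genes tested, 1 was higher and 2 lower at an unadjusted p under 0.05. Ly6a, the surface protein Sca-1 of brain vessel cells, had 167, 200 and 189 counts on NCD and 203, 245 and 196 counts on HFD. In CPM all HFD libraries were above all NCD libraries, at 20.7 ± 0.834 on NCD and 27.6 ± 1.37 on HFD (SD, n = 3 each). The log2 fold change was 0.42 ± 0.13 (SE), with an unadjusted edgeR p of 0.00657 and an adjusted p of 0.979, and it stayed between 0.38 and 0.45 with any 1 library left out. Trim21, an antibody receptor of the cytosol, had 9, 21 and 29 counts on NCD and 3, 3 and 13 counts on HFD, and a log2 fold change of -1.37 ± 0.60 (SE) with an unadjusted p of 0.0359. It was -0.94 without HFD replicate 2. Without HFD replicate 3 Trim21 passed the filter only through its NCD libraries, so that no fitted value is given. Irgm2, a relative of Irgm1, had 32, 48 and 35 counts on NCD and 26, 15 and 12 counts on HFD, and -0.89 ± 0.38 (SE) with an unadjusted p of 0.0332. An exon of Irgm2 overlaps one of the member Igtp on the same strand, and the sum of both was 57, 88 and 73 counts on NCD and 56, 45 and 42 counts on HFD, which in CPM (7.04, 9.49 and 7.69 against 8.06, 4.92 and 5.77) overlapped. The edgeR adjusted p of Trim21 and Irgm2 was 0.979 as well.

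The other genes of class I processing had a median log2 fold change of 0.22, beside 0.01 for the class I members, and this difference was not tested. Of 13 tested, 3 were higher and 0 lower at an unadjusted p under 0.05, against 1.71% and 1.98% of all genes, and all HFD libraries lay above all NCD libraries for 5, against 4.31%. Psmb9, a catalytic subunit of the immunoproteasome, had 12, 24 and 5 counts on NCD and 29, 29 and 17 counts on HFD. Its level was 1.53 ± 1.03 CPM on NCD and 3.23 ± 0.92 CPM on HFD (SD, n = 3 each), and NCD replicate 3 was again the lowest library. The log2 fold change was 1.07 ± 0.48 (SE) with an unadjusted edgeR p of 0.0395, and leaving out NCD replicate 3 gave 0.64 (unadjusted p 0.159), while leaving out NCD replicate 2 gave 1.70 (unadjusted p 0.0065). An exon of Psmb9 overlaps one of Tap1 on the other strand, and the use of strand in the counting is not given in the sources used here. Psme1, a subunit of the proteasome activator PA28, had 251, 306 and 255 counts on NCD and 261, 331 and 289 counts on HFD, and its log2 fold change was 0.32 ± 0.13 (SE) with an unadjusted p of 0.0246. Calr, the chaperone calreticulin, had 2370, 2576 and 2611 counts on NCD and 2121, 3081 and 2508 counts on HFD, and its log2 fold change was 0.22 ± 0.10 (SE) with an unadjusted p of 0.0377. The edgeR adjusted p was 0.979 for each of the 3.

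Of the 6 named pathway genes, Ly6a alone kept an unadjusted edgeR p under 0.05 whichever library was removed, and its largest was 0.0282. Psme1 lost it without NCD replicate 3 (0.0946), and Irgm2 without NCD replicate 2 (0.12), HFD replicate 2 (0.138) or HFD replicate 3 (0.106). Psmb9 also lost it without NCD replicate 1 (0.0812), HFD replicate 1 (0.149) or HFD replicate 2 (0.0781). Trim21 lost it without NCD replicate 2 (0.0734), NCD replicate 3 (0.159), HFD replicate 1 (0.126) or HFD replicate 2 (0.169). Calr lost it without NCD replicate 1 (0.0625), NCD replicate 2 (0.0984), NCD replicate 3 (0.0764) or HFD replicate 2 (0.114), and with library size alone (0.0552). Psmb9 was at 0.0502 with library size alone. In the fit without a filter Oasl1, Slfn8, Gbp4 and H2-M3, all under the filter, had an unadjusted p under 0.05 besides these 6. That fit held 126 of the other pathway genes, and 4.76% of its 18936 genes had such a p. Slfn8, a gene of unsettled antiviral role, had 4, 3 and 0 counts on NCD and 6, 5 and 14 counts on HFD. Oasl1, a relative of the oligoadenylate synthetases, had 4, 4 and 1 counts on NCD and 0 in all HFD libraries. Gbp4, a guanylate-binding protein, had 4, 16 and 15 counts on NCD and 5, 3 and 0 counts on HFD, and H2-M3, a nonclassical class I molecule, had 7, 15 and 19 counts on NCD and 1, 7 and 2 counts on HFD. These 4 genes went both ways, with 1 higher and 3 lower on HFD, and their edgeR adjusted p was 0.904 to 0.941.

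**Figure D4:**
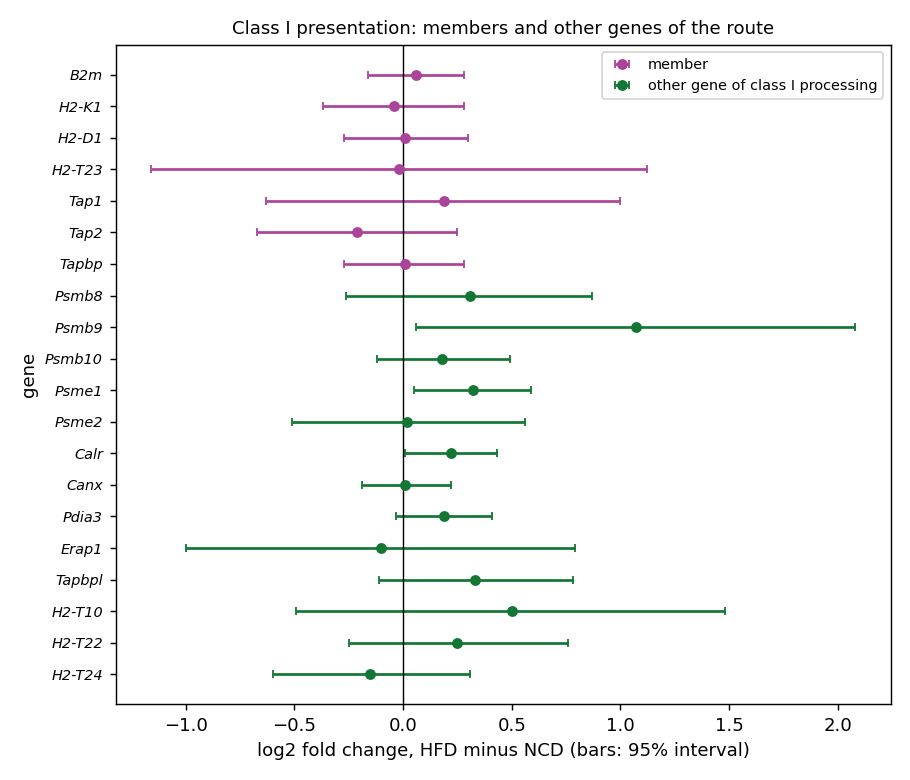
Log2 fold change (HFD minus NCD) of the 7 class I members tested and of 13 other genes of class I processing, from edgeR's quasi-likelihood fit on 3 against 3 libraries, with 95% intervals as bars. The members lie close to 0, between -0.21 and 0.19, and the intervals of Psmb9, Psme1 and Calr lie just above 0 before adjustment.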

How the data were processed

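Forebrain RNA of 3 NCD and 3 HFD libraries was sequenced by the authors with QuantSeq 3′ libraries and single 75-base reads, trimmed and mapped to mm10 with Bowtie2. The deposited values are raw counts per gene, made by the authors with Bedtools from unique and multiple alignments, without normalization. Tool versions, annotation and use of strand are not given in the sources used here. A 3′ library reads the end of each transcript, so genes with alike or overlapping ends can share counts. Of the 43 members, 11 share 75 bases of their last 500 bases with another gene, and 7 have an exon that overlaps another gene's on the same strand (GENCODE, GRCm38).

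Counts were fitted with edgeR 4.0.16 in R 4.3.3 (filterByExpr, minimum count 10, minimum total 15, TMM, glmQLFit and glmQLFTest, 3 HFD against 3 NCD libraries, no covariate), adjusted by Benjamini-Hochberg across 13771 genes. The common biological coefficient of variation was 0.126. The code was tested on simulated data. SEs were obtained from each log2 fold change and its F statistic. Members under the filter took values from a fit of all 18936 entries with a count. An exact permutation test of 3 against 3 libraries cannot go below 0.1 and was not used. Poisson intervals are exact and, like the floor, cover counting error only. DESeq2 1.42.0, limma 3.58.1 with quantile normalization, other scalings and filters, a block on the replicate number and the removal of each library were the alternatives. Replicate numbers did not pair the libraries.

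Per-library counts are given for members and pathway genes with an unadjusted p under 0.05, members whose groups did not overlap, the 3 highest and 3 lowest log2 fold changes, the member with the most counts in each role, and members under the filter. Genes added after their values were seen are those noted for their spread. The members and lists were chosen with earlier results of these data known. The marker lists of pericytes, perivascular macrophages, granulocytes, meningeal fibroblasts, choroid plexus, ependyma, astrocytes and oligodendrocytes were computed alike, with between 0 and 1 genes of each past an unadjusted p of 0.05.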

Additional observations from a re-analysis of the deposited data

How the results depend on the processing

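The count of members with an adjusted p under 0.05 was 0 in each of the 14 settings, by edgeR, DESeq2 and limma. At an unadjusted p under 0.05 the fit without a filter gave 1 higher member (Mx2). It also gave 10 of 126 other pathway genes, against 6 of 88 in the main fit. Over all genes the share with such a p was 4.76% without a filter and 3.68% in the main fit. With each library left out in turn, 0 to 1 members were higher, 0 to 1 were lower, and 2 to 8 other pathway genes passed, with 2 without NCD replicate 3 and 3 without HFD replicate 2. The higher member without NCD replicate 1 and without HFD replicate 1 was Mx2, which passed the filter there only through HFD libraries. Trim21 without HFD replicate 3 passed it only through NCD libraries. The share over all genes in these fits is not given, so these counts cannot be set against it. The median log2 fold change of the members lay between -0.04 (without NCD replicate 3) and 0.12 (without HFD replicate 2). Same-numbered libraries deviated with correlations of -0.0574 to 0.0515, so the numbers were not taken as pairs. With the replicate block, 0 members passed, the median was 0.03, and 5 other pathway genes passed (Calr was at an unadjusted p of 0.0631). Of 533 comparisons of single members with their main value, 56 changed the sign of a log2 fold change, all of them uncalled. HFD replicate 1 was the highest library for 9 members with library size alone, against 10. A member at a median SE of 0.32 could not be called at small differences at this depth.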
